A study of Mus musculus with 6 samples.

Results

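The legacy stem and progenitor transcription factors analysed here were 9 genes chosen by symbol, Spi1, Lmo2, Lyl1, Bcl11a, Meis1, Mef2c, Erg, Hoxa9 and Etv6, of 28048 genes in the matrices. Of the 9 factors, 8 had at least 100 unique molecular identifiers (UMIs, each marking 1 captured RNA molecule) over all libraries and were compared, together with 10847 genes that met the same minimum. Hoxa9 had 42 UMIs in all and is given as counts only. RNA of single nuclei was profiled by sci-RNA-seq3, which barcodes fixed cells or nuclei in successive rounds, from T progenitors made in culture from adult bone marrow of mice aged 2 to 4 months. Progenitors enriched for CD117 were pooled from 6 to 8 mice of a genotype, males and females combined, and grown on OP9-DL1, a stromal line that displays the Notch ligand DL1. The cells were sorted as DN1 (CD44+ CD25-), DN2a (CD44+ CD25+ Bcl11b-YFP-) or DN2b (CD44+ CD25+ Bcl11b-YFP+) and returned to OP9-DL1 for 4 days before profiling. By the methods of the study, the medium held Flt3-L and IL-7, and for this experiment also SCF, IL-2 and IL-15. A library is therefore named for the population that started its re-culture, and its cells had developed further by the time of measurement. WT mice were C57BL/6 Bcl11b YFP/YFP, and ΔTE mice carried the same YFP knock-in on both copies with the distal timing enhancer of Bcl11b deleted from both. Both genotypes thus had the reporter, and the feeder line was present in every re-culture.

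These factors belong to the regulatory network of multipotent blood progenitors and are carried into the thymus by cells that have not yet committed to the T lineage. Spi1 encodes PU.1, an ETS factor that drives myeloid and lymphoid progenitor programs, and Erg and Etv6 encode ETS factors needed by blood stem cells. Lmo2 is an adaptor that joins basic helix-loop-helix factors such as Lyl1 to other DNA-binding partners. Hoxa9 and Meis1 are partner homeodomain factors of stem cells and leukemia. Mef2c is a MADS-box factor of lymphoid and myeloid progenitors. Bcl11a is a zinc-finger factor of lymphoid progenitors and the closest relative of Bcl11b, which is switched on at T commitment. During commitment Notch signaling and the T-cell factors replace this network, and its members are described as shut off then.

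A single library was made per condition, 6 in all, so that the differences below compare libraries without replicates and carry no test. A cell was kept when it had 200 genes or more, no more than 2000 UMIs and a mitochondrial share of 30% or less, which left 60671 cells, between 3401 and 19489 per library, with a median of 386 to 485 UMIs per cell. The libraries held 8007395 to 14555100 UMIs over all barcodes. No cell barcode was shared between libraries, which follows from the design, since a barcode names its reverse-transcription well and each library had its own wells. Levels are CPM, the summed UMIs of a gene scaled to a library total of 1000000 over genes seen in 15 or more cells, and parentheses give 95% counting intervals, which do not cover differences between cultures. The cells of a library came from 3 reverse-transcription wells, technical parts of a single culture. The WT DN2a library stood apart, since its cells had a median of 13.3% mitochondrial UMIs against 20.9% to 23.9% elsewhere, and the mitochondrial limit removed 2.59% of its cells against 26.8% to 56.6%. All 10 markers fixed for T cells had UMIs in every library. Bcl11b itself stood at 235, 535 and 856 CPM in WT cells of the DN1, DN2a and DN2b starts and at 89.4, 257 and 540 CPM in ΔTE cells.

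Between the DN1 and DN2a starts some of the factors were lower and others were not. The DN2a cells were Bcl11b-negative at the sort, 4 days before profiling. At profiling, 3647 WT DN2a cells held a Bcl11b UMI and 15842 did not, and in ΔTE DN2a 1268 did and 10326 did not. A DN2a library thus mixes cells with and without a Bcl11b UMI, so this step does not show whether a factor is shut off at commitment. Spi1, Lmo2, Bcl11a, Mef2c and Meis1 were at least 1.5-fold lower in the DN2a than in the DN1 library of both genotypes and are called the DN1-high factors here. Lyl1 and Erg were near their DN1 level in DN2a, and Etv6 was lower by less than 1.5-fold. In WT cells 5 of 8 compared factors were at least 1.5-fold lower in the DN2a than in the DN1 library, where 2.81% of all compared genes were, and none was higher, where 15.1% were. In ΔTE cells the count was again 5 of 8, against 3.92% of all genes lower and 10.7% higher. The median log2 ratio of the 8 factors was −0.90 in WT cells and −1.13 in ΔTE cells, and the median over all compared genes was 0.15 and 0.01, respectively.

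**Figure D1:**
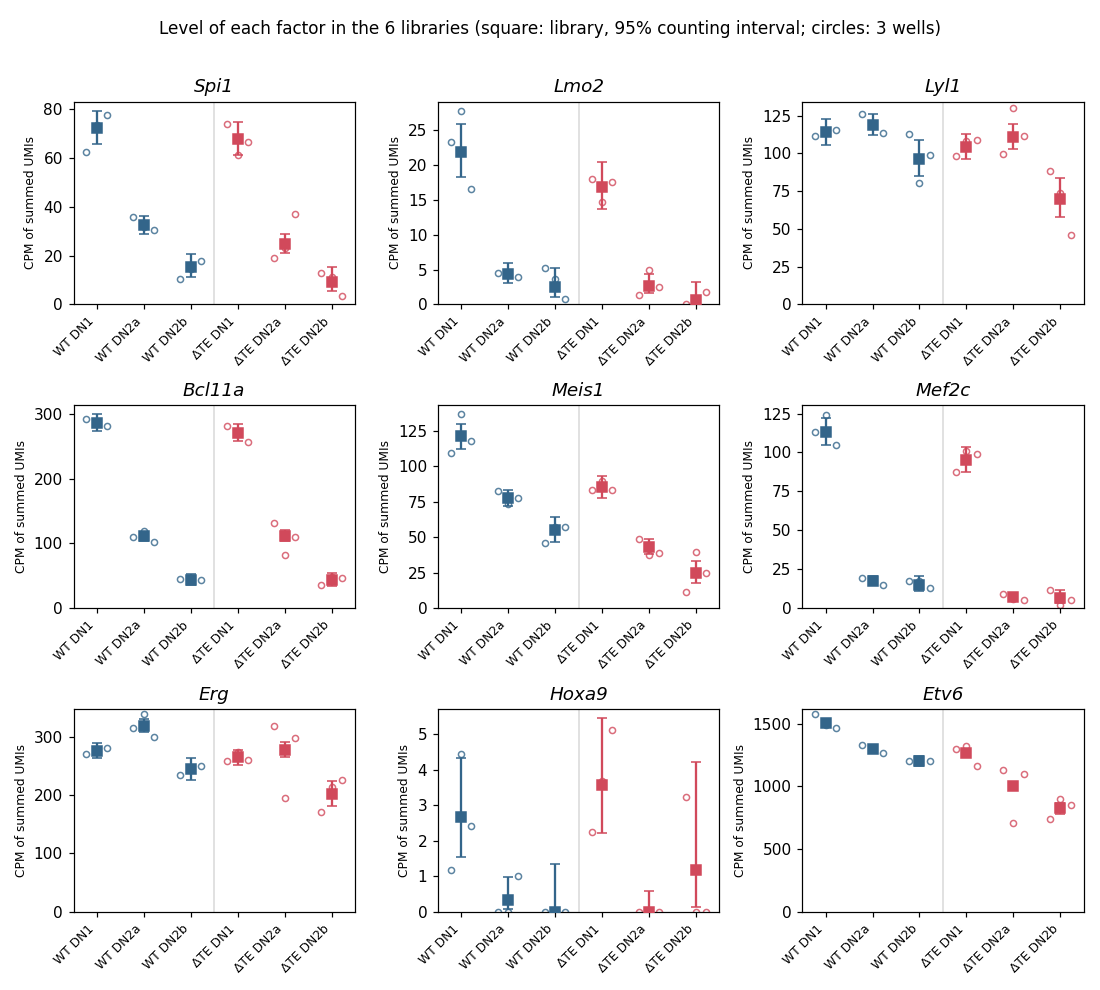
Level of each of the 9 factors in CPM (vertical axis, starting at 0, with its own scale in each panel) in the 6 libraries (horizontal axis). Squares are libraries with 95% counting intervals and open circles are their 3 reverse-transcription wells. Spi1, Lmo2, Bcl11a, Meis1 and Mef2c are lower in DN2a than in DN1 in both genotypes, by 1.56-fold for Meis1 to 6.44-fold for Mef2c in WT cells, and Lyl1 and Erg are not.

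Mef2c (ENSMUSG00000005583, chr13:83504034-83667080 on the plus strand of GRCm38) had the largest estimated ratio between DN1 and DN2a of the compared factors. Its level was 113 CPM (105 to 122) in the WT DN1 library, 17.6 CPM (15.0 to 20.5) in WT DN2a and 15.0 CPM (10.8 to 20.4) in WT DN2b. In ΔTE cells DN1 gave 95.01 CPM (87.3 to 103), DN2a 6.97 CPM (5.06 to 9.35) and DN2b 6.41 CPM (3.20 to 11.5). High levels of Mef2c were thus found in both DN1 libraries, and no well of a DN2a or DN2b library reached the level of a DN1 well. Between DN1 and DN2a it was 6.44-fold lower in WT cells, a log2 ratio of −2.69 (−2.94 to −2.43), and 13.6-fold lower in ΔTE cells, a log2 ratio of −3.77 (−4.25 to −3.33). From DN2a to DN2b its wells overlapped in both genotypes, with log2 ratios of −0.23 (−0.76 to 0.28) and −0.12 (−1.22 to 0.86).

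Bcl11a (ENSMUSG00000000861, chr11:24078056-24174123, plus strand) differed by steps of similar size. WT cells had 287 CPM (273 to 301) in DN1, 111 CPM (104 to 118) in DN2a and 43.6 CPM (36.1 to 52.2) in DN2b. ΔTE cells had 271 CPM (258 to 285) in DN1, 112 CPM (104 to 121) in DN2a and 42.5 CPM (33.3 to 53.5) in DN2b. The wells of the 3 starts did not overlap in either genotype. From start to start it had log2 ratios of −1.37 (−1.48 to −1.26) and −1.35 (−1.63 to −1.07) in WT cells and −1.27 (−1.40 to −1.15) and −1.40 (−1.77 to −1.05) in ΔTE cells.

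Spi1 (ENSMUSG00000002111, chr2:91082390-91115756, plus strand) had the same order at lower counts. It measured 72.3 CPM (65.6 to 79.4) in WT DN1, 32.5 CPM (28.9 to 36.5) in WT DN2a and 15.4 CPM (11.1 to 20.8) in WT DN2b, the last from 42 UMIs. In ΔTE cells the DN1 library gave 67.7 CPM (61.2 to 74.7), the DN2a library 24.7 CPM (21.0 to 28.9) and the DN2b library 9.32 CPM (5.33 to 15.1), the last from 16 UMIs. The DN1 wells lay above all DN2a wells, and the DN2a wells above all DN2b wells, within each genotype. Against DN1 the DN2b level was 4.70-fold lower in WT cells and 7.26-fold lower in ΔTE cells, with log2 ratios of −2.23 (−2.73 to −1.77) and −2.86 (−3.68 to −2.14). Its WT ratio of DN2b to DN2a, −1.08 (−1.58 to −0.61), was −0.49 with a mitochondrial limit of 20%.

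Lmo2 (ENSMUSG00000032698, chr2:103957986-103981878, plus strand) had few molecules outside DN1. Its UMIs were 131, 39 and 7 in the WT DN1, DN2a and DN2b libraries and 99, 17 and 1 in the ΔTE libraries, or 21.9, 4.31, 2.56, 16.8, 2.69 and 0.58 CPM. It was 5.07-fold lower in DN2a than in DN1 in WT cells, a log2 ratio of −2.34 (−2.90 to −1.82), and 6.24-fold lower in ΔTE cells, a log2 ratio of −2.64 (−3.48 to −1.89). The step from DN2a to DN2b, −0.75 (−2.16 to 0.43) in WT cells, had an interval that included 0, and the log2 ratio came to 0.0015 when 1 well of the WT DN2b library was left out. Against DN1 the WT DN2b level was 8.53-fold lower, at −3.09 (−4.44 to −2.01), and the single UMI of the ΔTE DN2b library gave −4.85 (−10.17 to −2.34).

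Meis1 (ENSMUSG00000020160, chr11:18879817-19018985, minus strand) had the smallest ratio of the DN1-high factors. WT DN1 cells had 121 CPM (113 to 130), WT DN2a cells 77.6 CPM (72.0 to 83.6) and WT DN2b cells 54.9 CPM (46.5 to 64.5). In ΔTE cells DN1 had 85.3 CPM (78.0 to 93.1), DN2a 43.2 CPM (38.2 to 48.7) and DN2b 24.5 CPM (17.6 to 33.1). Each ΔTE library was below the WT library of its start. The log2 ratio of DN2a to DN1 was −0.64 (−0.79 to −0.49) in WT cells and −0.98 (−1.20 to −0.77) in ΔTE cells, and the WT value passed 1.5-fold under 13 of 15 other settings and came to −0.56 when 1 well was left out. Its partner Hoxa9 (ENSMUSG00000038227, chr6:52223100-52231089, minus strand) had 16, 3 and 0 UMIs in the WT libraries and 21, 0 and 2 UMIs in the ΔTE libraries. Of its 42 UMIs, all but 5 were therefore in DN1 libraries, and the 95% intervals of the counts of 0 reached 1.35 CPM in WT DN2b and 0.584 CPM in ΔTE DN2a.

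The other factors had a different pattern. Erg (ENSMUSG00000040732, chr16:95359169-95586593, minus strand) had 276 CPM (263 to 290) in WT DN1, 319 CPM (308 to 331) in WT DN2a and 245 CPM (226 to 264) in WT DN2b. The ΔTE libraries had 264 CPM (252 to 278) of it in DN1, 278 CPM (265 to 291) in DN2a and 202 CPM (181 to 225) in DN2b. Lyl1 (ENSMUSG00000034041, chr8:84701457-84704715, plus strand) gave 114, 119 and 96.3 CPM in the WT libraries of the 3 starts, and 104, 111 and 69.9 CPM in those of ΔTE cells. For both genes the DN1 and DN2a levels were close and the DN2b level was the lowest of each genotype. Etv6 (ENSMUSG00000030199, chr6:134035700-134270158, plus strand) had the most UMIs, with 1506, 1299 and 1201 CPM in the WT libraries and 1265, 999.7 and 824 CPM in the ΔTE libraries.

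From DN1 to DN2a the log2 ratio was 0.21 (0.12 to 0.30) for Erg, 0.06 (−0.08 to 0.20) for Lyl1 and −0.21 (−0.25 to −0.17) for Etv6 in WT cells. In ΔTE cells the values were 0.07 (−0.03 to 0.17), 0.09 (−0.07 to 0.25) and −0.34 (−0.39 to −0.29). Scaling by trimmed means (TMM) in place of totals lowered every WT ratio of DN2a to DN1 by 0.14, and relative to the median of all genes the WT values were 0.06, −0.09 and −0.36. None of these WT ratios passed 1.5-fold under 15 other settings, and their direction changed under 1 setting for Erg, 3 for Lyl1 and 2 for Etv6.

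**Figure D2:**
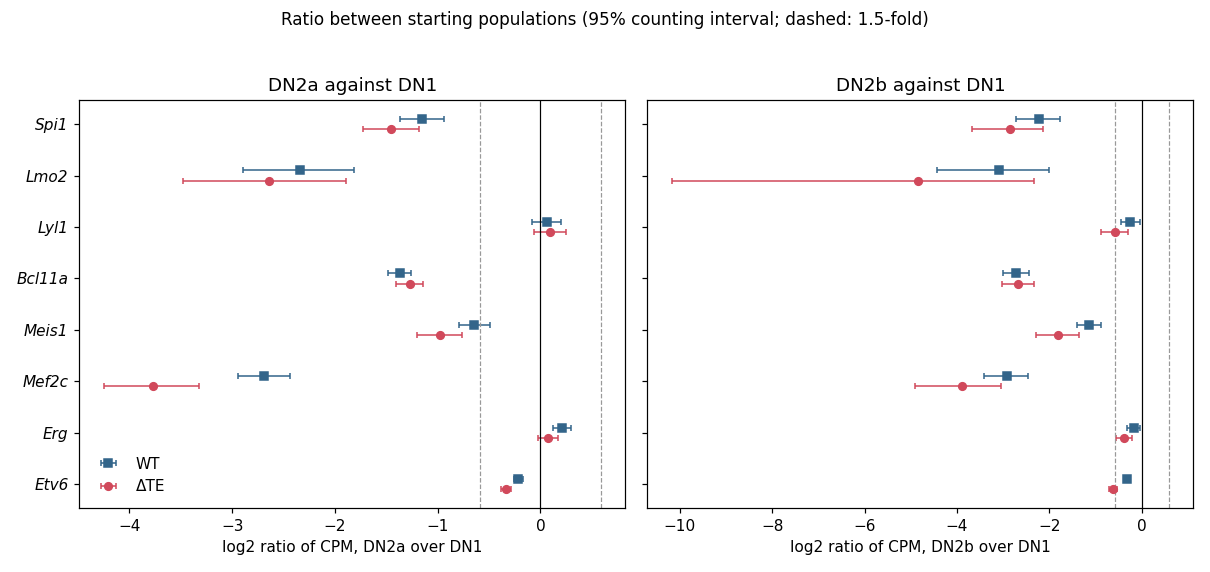
Log2 ratio of CPM of each compared factor in DN2a (left) and DN2b (right) libraries over the DN1 library of the same genotype, with 95% counting intervals (horizontal axes differ). Blue squares are WT and red circles ΔTE, and dashed lines mark 1.5-fold. Erg and Lyl1 lie near 0 in DN2a, whereas Mef2c lies at −2.69 in WT and −3.77 in ΔTE cells.

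The step from DN2a to DN2b separated the factors again. In WT cells 3 of 8 factors, Spi1, Lmo2 and Bcl11a, were at least 1.5-fold lower, against 15.2% of all compared genes, and none was higher, against 1.56%. Without the mitochondrial limit, which removed 2.59% of WT DN2a and 40.9% of WT DN2b cells, 6 of 8 factors were lower, with Mef2c at −0.76, Lyl1 at −0.72 and Erg at −0.69 added. In ΔTE cells 5 of 8 were lower, the same factors with Lyl1 and Meis1, against 14.1% of all genes lower and 3.98% higher. The Lmo2 ratio among them compared 1 UMI with 17, at −2.21 (−7.59 to 0.47), and its wells overlapped. Lyl1 then had a log2 ratio of −0.67 (−0.96 to −0.39), which came to −0.44 when 1 well was left out. Meis1 had −0.82 (−1.33 to −0.35), which came to −0.39 without the mitochondrial limit, and Spi1 −1.41 (−2.25 to −0.66). The medians of the factors were −0.44 in WT and −0.74 in ΔTE cells, beside −0.19 and −0.08 over all genes. Over the whole interval from DN1 to DN2b, 5 of 8 factors were lower in WT cells, against 9.98% of all genes lower and 9.84% higher. In ΔTE cells 6 of 8 were lower, with Etv6 added at −0.62 (−0.70 to −0.54), against 14.4% of all genes lower and 10% higher, and this Etv6 ratio passed 1.5-fold under 12 of 15 other settings.

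A stricter count asked that no well of one library reach the range of the other. It kept 5 of 8 factors between DN2a and DN1 in both genotypes, against 2.3% of all genes in WT and 2.91% in ΔTE cells. Between DN2b and DN2a it kept 2 of 8 in WT cells, Spi1 and Bcl11a, against 12.3%, and 3 of 8 in ΔTE cells, Spi1, Lyl1 and Bcl11a, against 5.75%. Between DN2b and DN1 it kept 5 of 8 in WT cells against 7.58% and 6 of 8 in ΔTE cells against 10.5%.

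The promoters of 3 DN1-high factors, Mef2c, Meis1 and Bcl11a, are set beside that of Etv6, which was within 1.5-fold of its DN1 level in DN2a, to show what sequence the factors with unlike patterns carry at their starts. The sequences run 5′ to 3′ on the coding strand from 250 bases before to 50 bases after the RefSeq start (GRCm38.p6), at chr13:83503784-83504083 (plus strand, the most upstream of 3 starts of Mef2c), chr11:19018920-19019219 (minus, Meis1), chr11:24080445-24080744 (plus, Bcl11a) and chr6:134035450-134035749 (plus, Etv6). Capitals mark matches to the motif of PU.1 (GAGGAA), of Runx factors (TGTGGT), of GATA factors (AGATAA) or of basic helix-loop-helix factors (CAGCTG) on either strand. 
Mef2c: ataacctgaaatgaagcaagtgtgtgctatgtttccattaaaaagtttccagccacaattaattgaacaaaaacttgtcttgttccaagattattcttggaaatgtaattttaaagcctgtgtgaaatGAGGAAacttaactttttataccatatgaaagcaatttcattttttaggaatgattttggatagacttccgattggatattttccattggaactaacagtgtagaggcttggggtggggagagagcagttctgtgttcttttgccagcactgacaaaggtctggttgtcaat
Meis1: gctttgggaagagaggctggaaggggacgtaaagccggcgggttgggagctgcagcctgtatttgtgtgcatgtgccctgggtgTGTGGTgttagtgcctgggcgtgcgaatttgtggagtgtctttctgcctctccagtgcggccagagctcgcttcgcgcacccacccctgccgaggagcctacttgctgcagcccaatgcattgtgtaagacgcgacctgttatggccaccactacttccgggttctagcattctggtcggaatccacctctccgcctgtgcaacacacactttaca
Bcl11a: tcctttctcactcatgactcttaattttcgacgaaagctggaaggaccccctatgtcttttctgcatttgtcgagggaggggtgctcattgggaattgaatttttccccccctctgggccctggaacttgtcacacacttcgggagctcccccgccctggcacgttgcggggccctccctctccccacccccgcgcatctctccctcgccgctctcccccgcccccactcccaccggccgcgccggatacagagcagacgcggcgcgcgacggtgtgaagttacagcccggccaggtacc
Etv6: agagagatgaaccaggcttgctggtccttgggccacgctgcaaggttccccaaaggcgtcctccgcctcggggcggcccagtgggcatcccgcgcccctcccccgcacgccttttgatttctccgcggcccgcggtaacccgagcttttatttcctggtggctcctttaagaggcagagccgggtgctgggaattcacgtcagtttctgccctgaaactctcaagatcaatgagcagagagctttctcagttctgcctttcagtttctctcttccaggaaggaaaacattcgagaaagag
Mef2c held 1 PU.1 motif and Meis1 1 Runx motif, whereas the windows of Bcl11a and Etv6 held none of the 4 motifs. RefSeq gave 11 promoters for 7 of the 9 factors. Of these 4 held the PU.1 motif, 1 the Runx motif, 1 the GATA motif and 0 the helix-loop-helix motif. Among 32851 promoters of the same length, 28.3%, 16.8%, 11.2% and 16.3% held them, in that order.

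Between genotypes no factor was higher in ΔTE cells by 1.5-fold at any start. For the DN1 start 0 of 8 factors were at least 1.5-fold lower in ΔTE cells, against 4.16% of all compared genes lower and 2.54% higher. For the DN2a start 3 of 8, Lmo2, Meis1 and Mef2c, were lower, against 8.48% of all genes lower and 1.8% higher. For the DN2b start 4 of 8, the same factors with Spi1, were lower, against 11.2% lower and 6.55% higher. With wells that did not overlap, the counts were 0 for DN1 against 1.58%, 2 for DN2a against 3.35% and 2 for DN2b against 4.13%. The last 2 counts were Meis1 and Mef2c at both starts. The medians of the 8 factors were −0.19, −0.39 and −0.63 for the DN1, DN2a and DN2b starts, beside −0.00, −0.14 and −0.03 over all genes. Genes spanning 100 kb or more, as Meis1, Mef2c, Erg and Etv6 do, had medians of −0.07, −0.19 and −0.19. Genes under 20 kb had medians of 0.02, −0.12 and 0.07. The part of gene length in the factors' values was not tested.

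Meis1 was below WT at all 3 starts, with log2 ratios of ΔTE to WT of −0.51 (−0.67 to −0.34) for DN1, −0.85 (−1.05 to −0.64) for DN2a and −1.17 (−1.70 to −0.66) for DN2b. No ΔTE well reached the WT range at any start. Mef2c was below WT by less than 1.5-fold for the DN1 start, at −0.25 (−0.42 to −0.09), with wells that did not overlap. It was 2.52-fold lower for DN2a, at −1.34 (−1.85 to −0.85), and 2.34-fold lower for DN2b, at −1.23 (−2.34 to −0.24). Both genes stayed at least 1.5-fold lower for DN2a and DN2b under each of 15 other settings and with each of 6 wells left out. However, with single wells left out the DN2b ratio ranged from −2.04 to −0.83 for Mef2c and from −1.63 to −0.78 for Meis1. Meis1 also came to −0.60 at both starts without the mitochondrial limit. In barcodes over that limit Meis1 was at 68.7 CPM in ΔTE and 72.2 CPM in WT for DN2a, the latter from 21 UMIs. For DN2b it was at 47.4 and 64.0 CPM. In barcodes over 2000 UMIs it was at 104 and 85.5 CPM for DN2a and at 66.3 and 69.8 CPM for DN2b, from few UMIs. The size of the Meis1 difference thus depended on which cells were kept.

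Bcl11a was near level between the genotypes. Its log2 ratio was −0.08 (−0.18 to 0.02) for DN1, 0.02 (−0.13 to 0.16) for DN2a and −0.03 (−0.48 to 0.40) for DN2b, intervals that leave out a 1.5-fold difference at each start. Erg lay between −0.06 and −0.27 and Lyl1 between −0.10 and −0.46. Etv6 was lower in ΔTE cells at each start, at −0.25 (−0.30 to −0.21), −0.38 (−0.42 to −0.33) and −0.54 (−0.63 to −0.45), and its wells did not overlap, but none of these passed 1.5-fold, the DN2b value doing so under 4 of 15 other settings. Its DN2a value ranged from −0.51 to −0.15 over the other settings and from −0.55 to −0.22 with single wells left out.

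Spi1 and Lmo2 rested on few UMIs in DN2b. Spi1 was at −0.09 (−0.29 to 0.10), −0.40 (−0.69 to −0.11) and −0.72 (−1.65 to 0.14) for the 3 starts, and the DN2b value came to −0.26 without cells that had at least 2 UMIs of ILC or NK markers and to −0.34 when 1 well was left out. The Lmo2 value for DN2a, −0.68 (−1.60 to 0.18), came to −0.16 when 1 well was left out. Its DN2b value compared 1 UMI with 7, at −2.14 (−7.63 to 0.82). For both genes the intervals of the values past 1.5-fold reached above 0. Bcl11b itself was at −1.39, −1.06 and −0.67 for the DN1, DN2a and DN2b starts.

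**Figure D3:**
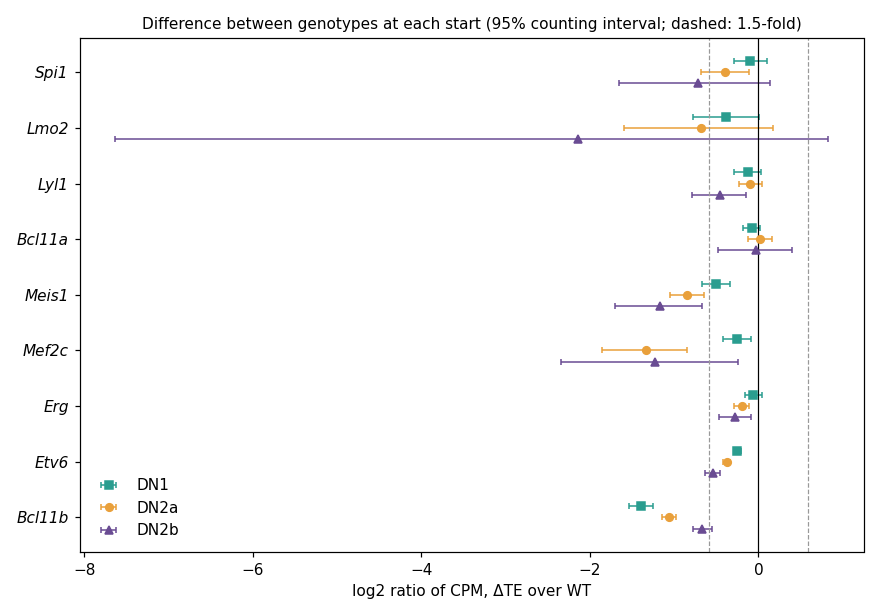
Log2 ratio of CPM in ΔTE over WT libraries of the same start (horizontal axis) for the 8 compared factors and Bcl11b, with 95% counting intervals. Squares are DN1, circles DN2a and triangles DN2b, and dashed lines mark 1.5-fold. Bcl11a lies near 0 at each start, Meis1 lies below 0 at each, and Mef2c lies beyond −1 for DN2a and DN2b.

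The cultures held other cells, and the factors were unevenly spread over them. Cells with at least 2 UMIs of 12 stromal markers, led by Col1a2, Cxcl12, Col1a1 and Sparc, were most frequent in WT DN2a, at 9.95%, and made up 1.88% to 6.58% of cells elsewhere. They held 12.7% of the Meis1 UMIs. Meis1 was higher in them than in the other cells of the same library in 5 of 6 libraries, at 175 CPM (126 to 235) against 119 CPM in WT DN1, 137 CPM (117 to 159) against 68.3 CPM in WT DN2a and 113 CPM (86.3 to 146) against 36.8 CPM in ΔTE DN2a. The 64 such cells of ΔTE DN2b held no Meis1 UMI, which allows up to 82.4 CPM. Bcl11a, Erg, Etv6 and Lyl1 were lower in them in each library. The summed level of the 12 stromal markers was 518, 2118 and 791 CPM in the WT libraries and 303, 1288 and 369 CPM in the ΔTE libraries, with 11 or 12 markers detected in each. Stromal RNA was thus lower in ΔTE libraries at each start, as Meis1 was. Without any cell that held a stromal marker UMI, the Meis1 ratio of ΔTE to WT was −0.92 for DN2a and −1.05 for DN2b. In cells below 2 UMIs of each of 6 marker lists, Meis1 for the DN2a start was at 67.5 CPM without and 38.6 CPM with the deletion, and for the DN2b start at 55.6 and 20.4 CPM. Mef2c in the same cells was at 19.5 and 7.20 CPM for DN2a and at 18.7 and 8.14 CPM for DN2b.

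Cells with at least 2 UMIs of 12 myeloid markers, led in UMIs by Mpo, Ctsg and Lyz2, were 3.71% of the WT DN1 and 2.73% of the ΔTE DN1 library and at most 0.50% of any other. They were therefore compared with the other cells of the same DN1 library. In WT DN1 they had 171 CPM (124 to 229) of Spi1 against 67.9 CPM, 93.2 CPM (59.7 to 139) of Lmo2 against 18.7 CPM and 233 CPM (178 to 300.01) of Mef2c against 108 CPM. In ΔTE DN1 the values were 204 against 62.8 CPM of Spi1, 63.2 against 15.1 CPM of Lmo2 and 262 against 88.9 CPM of Mef2c. Bcl11a was at 268 against 287 CPM in WT DN1, a log2 ratio of −0.10 (−0.47 to 0.25), and at 408 against 266 CPM in ΔTE DN1, a log2 ratio of 0.62 (0.28 to 0.94). Erg was lower in them, at 136 against 283 CPM in WT DN1 and at 185 against 267 CPM in ΔTE DN1. Over all libraries these cells held 7.16% of the Spi1 UMIs, 13.3% of those of Lmo2 and 8.04% of those of Mef2c. Without them the log2 ratio of DN2a to DN1 in WT cells was −1.08 for Spi1, −2.14 for Lmo2 and −2.65 for Mef2c, and in ΔTE cells it was −1.37, −2.57 and −3.73. The summed myeloid markers were 411, 84.7 and 52.7 CPM in the WT libraries and 306, 86.3 and 37.9 CPM in the ΔTE libraries, with between 8 and 12 of the 12 markers detected.

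Cells with at least 2 UMIs of 10 T markers, led by Cd3g, Lck, Trat1 and Lat, are likewise given within a library, since most were in DN2a and DN2b libraries. Bcl11a was lower in them in each of the 6 libraries, at 131 against 295 CPM in WT DN1 and 181 against 276 CPM in ΔTE DN1. Meis1 was also below the other cells in each library, but its interval left out 0 only in WT DN2b and ΔTE DN2a. Mef2c was at 62.2 against 116 CPM in WT DN1 and at 20.9 against 98.8 CPM in ΔTE DN1, from 19 and 6 UMIs. Spi1 was at 29.4 against 74.6 CPM in WT DN1, where its interval left out 0, and at 52.2 against 68.5 CPM in ΔTE DN1, where it did not. Erg was at 317 against 274 CPM and Lyl1 at 137 against 113 CPM in WT DN1, within 1.5-fold.

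Cells with at least 2 UMIs of 13 markers listed for ILC or NK cells were 5.22%, 5.54% and 9.70% of the WT libraries and 8.61%, 12.6% and 18.2% of the ΔTE libraries. The list is led by Zbtb16, which gave 266 of its 521 CPM in WT DN1, and by Gata3, which is also a T commitment gene, so that these cells are not all ILC or NK cells. In WT DN1 they had 66.4 against 72.7 CPM of Spi1, 115 against 122 CPM of Meis1 and 59.6 against 117 CPM of Mef2c. In ΔTE DN1 they had 64.2 against 68.1 CPM of Spi1, 83.2 against 85.6 CPM of Meis1 and 39.4 against 102 CPM of Mef2c. All marker classes are cuts on counts and not cell types, and many cells lie at the limit of 2 UMIs. Fewer cells that express a factor and less RNA per cell cannot be told apart in a summed level.

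**Figure D4:**
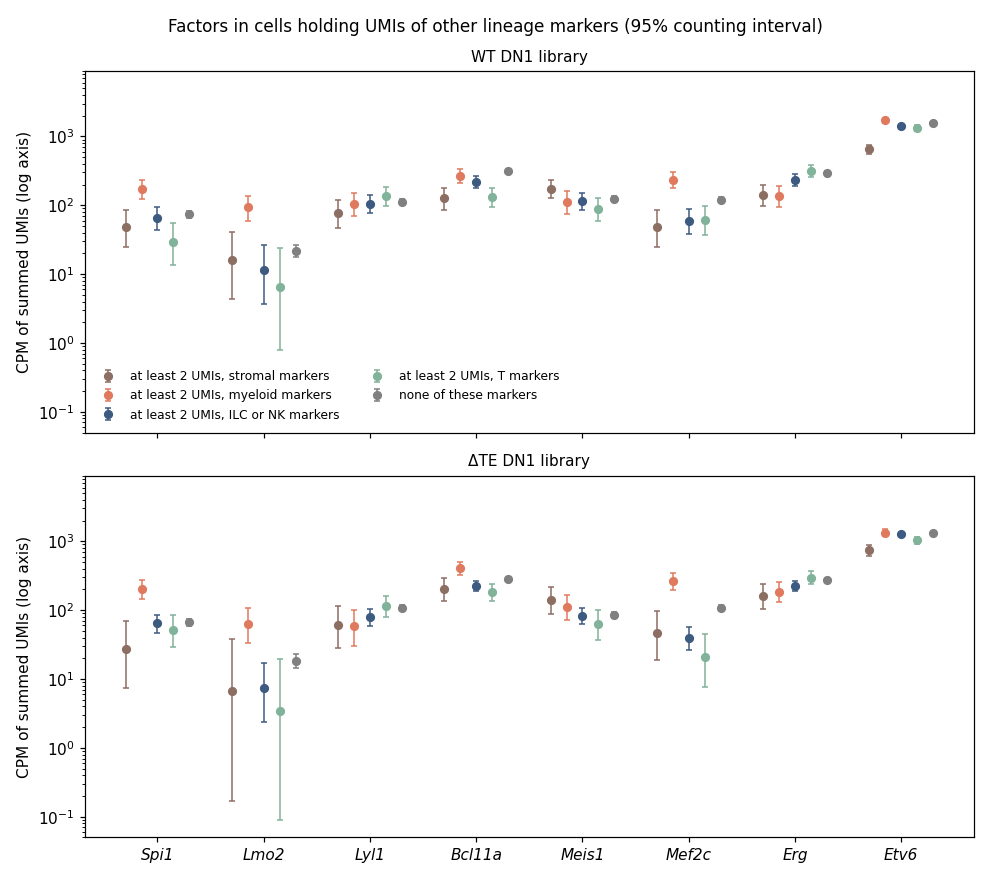
CPM of each compared factor (vertical log axis) in cells with at least 2 UMIs of stromal, myeloid, ILC or NK, or T markers and in cells below that limit for every list, in the WT DN1 (top) and ΔTE DN1 (bottom) library, with 95% counting intervals. In both, Spi1, Lmo2 and Mef2c have their highest value in cells with myeloid markers, and Meis1 has its highest in cells with stromal markers, at 175 and 142 CPM.

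Within each library the factors were then compared between cells with and without a Bcl11b UMI, leaving Bcl11b out of the totals. Of 43 pairs of a factor and a library with at least 20 UMIs, 16 were at least 1.5-fold lower in cells with Bcl11b, and 0 were higher. Over all compared genes 14.4% of such pairs were lower and 4.78% higher. Of the 43 pairs, counting intervals lay wholly below 0 for 13 and wholly above 0 for 4. Bcl11a was below its level in the other cells in 6 of 6 libraries, with log2 ratios from −1.12 to −0.20, and Meis1 in 6 of 6, from −0.92 to −0.06. Their intervals lay wholly below 0 in 5 libraries for Bcl11a and in 2 for Meis1. Cells with stromal markers, which had 122 CPM of Bcl11b over all libraries against 387 CPM in the others, were not left out. Erg lay between −0.04 and 0.31, Etv6 between −0.01 and 0.42 and Lyl1 between −0.28 and 0.15. Cells with a Bcl11b UMI also had more UMIs, with medians of 441 to 567.5 against 375 to 482 in the others. CPM scales the totals but does not undo the choice of cells by a detected UMI. The part of this choice in the ratios was not tested.

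For Mef2c and Spi1 the split was widest in the DN1 libraries. Among WT DN1 cells Mef2c was at 40.1 CPM in 1092 cells with Bcl11b and at 123 CPM in 9833 cells without, a log2 ratio of −1.62 (−2.21 to −1.08). In ΔTE DN1 cells it was at 13.5 CPM, from 4 UMIs, against 99.3 CPM. Spi1 was at 35.9 against 77.3 CPM in WT DN1 cells and at 23.6 against 70.0 CPM in ΔTE DN1 cells. Bcl11a was at 180 against 301 CPM and at 159 against 277 CPM. In the DN2a libraries Mef2c differed less, at −0.48 (−1.14 to 0.14) in WT cells and 0.33 (−1.08 to 1.51) in ΔTE cells.

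**Figure D5:**
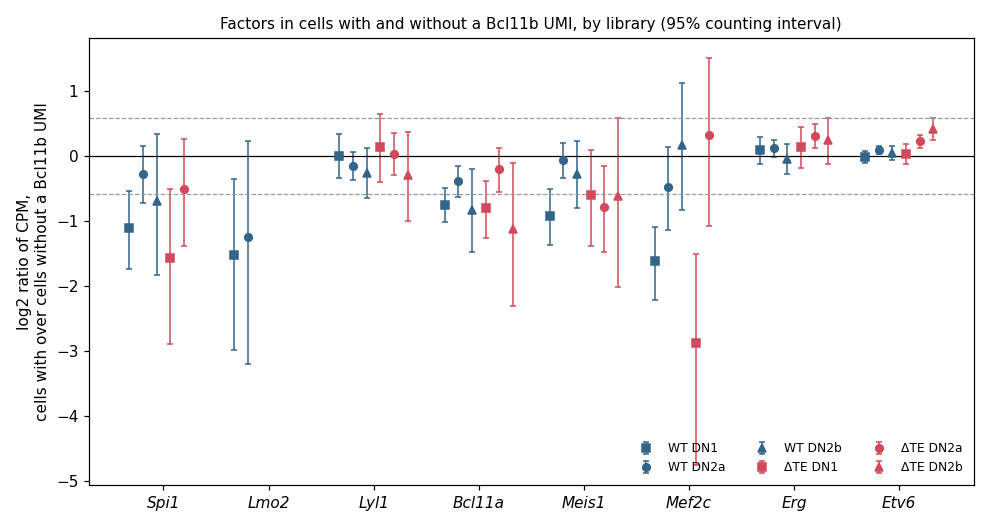
Log2 ratio of CPM of each compared factor in cells with over cells without a Bcl11b UMI (vertical axis), by library, for pairs with at least 20 UMIs and at least 1 UMI in cells with Bcl11b. Blue is WT and red ΔTE, with squares for DN1, circles for DN2a and triangles for DN2b. Bars are 95% counting intervals and dashed lines mark 1.5-fold. Bcl11a and Meis1 lie below 0 in each of 6 libraries, with intervals wholly below 0 in 5 for Bcl11a and 2 for Meis1. Erg and Etv6 lie near or above 0.

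Within the DN1 libraries, cells with a Mef2c UMI had higher levels of the other DN1-high factors. The 576 WT DN1 cells with a Mef2c UMI had 522 CPM of Bcl11a against 271 CPM in the others, a log2 ratio of 0.95 (0.72 to 1.16), 119 against 69.2 CPM of Spi1, 51.4 against 19.9 CPM of Lmo2 and 189 against 117 CPM of Meis1. The progenitor receptor genes Flt3 and Cd34 were at 54.1 against 12.1 CPM and at 187 against 93.8 CPM in these cells, whereas Bcl11b was at 70.4 against 246 CPM. Lyl1 at 108 against 114 CPM and Erg at 235 against 279 CPM were not higher. Cells with a Mef2c UMI had a median of 544.5 UMIs against 457 in the others. In ΔTE DN1 cells the 486 cells with a Mef2c UMI gave 485 against 259 CPM of Bcl11a, 125 against 64.4 CPM of Spi1 and 169 against 80.5 CPM of Meis1. Spi1 and Meis1 did not show this between themselves. WT DN1 cells with a Spi1 UMI had 96.6 against 122 CPM of Meis1, a log2 ratio of −0.34 (−0.97 to 0.22), and in ΔTE DN1 cells the ratio was −0.27 (−1.01 to 0.39). Cells with a Spi1 UMI had 364 against 283 CPM of Bcl11a and 201 against 109 CPM of Mef2c in the WT DN1 library. They also had 286 against 155 CPM of the myeloid marker Mpo and 264 against 237 CPM of Kit. Cells with myeloid markers were not left out of these splits by Mef2c and Spi1, so the splits do not tell progenitors from myeloid cells.

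By the distance between log2 profiles over the 6 libraries, after centering each, Lyl1 and Erg were nearest to each other, with a root-mean-square distance of 0.08. Spi1 and Bcl11a were nearest at 0.24. Etv6 was nearest to Lyl1 at 0.18, and Meis1 nearest to Etv6 at 0.47. Lmo2 and Mef2c were the nearest pair for Lmo2, at 0.63. Of 7979 other genes with at least 500 UMIs, the 5 whose profile was nearest to the mean of the 8 factors were Pla2g4a, Ldlrad3, Sh2b2, Skap2 and Plppr3, at distances of 0.10 to 0.21. Pla2g4a, a cytosolic phospholipase A2, went from 274 to 143 to 89.0 CPM in the WT libraries and from 251 to 117 to 53.6 CPM in the ΔTE libraries.

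Other genes of the progenitor state had mixed directions. Of 20 other stem and progenitor factors 16 were compared, and between DN2a and DN1 of WT cells 3 were at least 1.5-fold lower and 4 higher, with a median of 0.17. Their 4 most abundant members, Runx1, Myb, Fli1 and Cbfa2t3, had log2 ratios of 0.25, 0.56, 0.02 and −0.17. In ΔTE cells 3 were lower and 3 higher. Of 10 compared progenitor receptor genes 5 were lower and 1 higher in both genotypes. Kit, the stem cell factor receptor, was nearly level at 238, 222 and 194 CPM in WT cells and 235, 209 and 209 CPM in ΔTE cells, whereas Cd34 stood at 99.5, 58.4 and 61.2 CPM in WT cells and at 84.3, 21.1 and 10.5 CPM in ΔTE cells.

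Of 16 compared T commitment genes 14 were at least 1.5-fold higher in DN2a than in DN1 of WT cells and 13 in ΔTE cells, and none was lower. Among them were 2 genes used in the sort: Il2ra encodes CD25, which set DN1 apart from DN2a and DN2b, and Bcl11b-YFP set DN2a apart from DN2b. Il2ra stood at 1653, 3388 and 2716 CPM in WT cells and 1826, 2857 and 2403 CPM in ΔTE cells. Of 14 compared myeloid genes 14 were lower in WT and 13 in ΔTE cells, with Mpo at 161, 29.1 and 10.6 CPM in the WT libraries and at 97.4, 22.2 and 2.91 CPM in the ΔTE libraries.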

How the data were processed

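The 6 libraries of nuclear RNA, 1 per genotype and starting population, were analysed. The authors deposited counts of UMIs per gene and barcode, not normalized and before any filter on cells. The labels name the genome build mm9 without saying for what it was used, and an aligner is not given in the sources used here. Gene positions come from GENCODE M21 (GRCm38) by Ensembl identifier, and promoters from RefSeq. Cells were kept at the limits stated above, after the methods of the study, and UMIs were summed per library and per well. No doublet caller was run, so the limit of 2000 UMIs was the only guard against doublets. Ratios have exact conditional 95% intervals and levels exact Poisson intervals (scipy 1.17.1), both for counting error only. A gene was called at 1.5-fold. With 1 library per condition, no test was run. Wells are not replicates. The code for ratios and intervals was checked on simulated counts with known ratios before use. TMM factors came from edgeR 4.0.16. Alternatives were 11 settings, 4 more chosen after seeing the data, and each of 18 wells left out. All 9 factors are named, beside Bcl11b, at most 4 genes per list (those with the most UMIs), the 5 nearest genes, and, chosen after their values were seen, Flt3 and Hlf. The members and lists were chosen with earlier results of these data known. Scripts ran in Python 3.11.15 with pandas 2.3.3, numpy 2.4.6 and matplotlib 3.10.9.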

Additional observations from a re-analysis of the deposited data

How the results depend on the processing

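The counts of factors past 1.5-fold stayed within 1.5 times their reported value under 15 settings, 4 of them chosen after seeing the data, apart from DN2b against DN2a of WT cells without the mitochondrial limit, which gave 6 of 8 factors in place of 3. The cause was not tested. For counts this small, a limit of 1.5 times is wide. Between genotypes the count ranged over the settings from 2 to 4 for DN2a, beside 3, and from 3 to 6 for DN2b, beside 4. It was 0 throughout for DN1. Between DN2b and DN2a of WT cells it ranged from 2 to 6. With single wells left out, the count between the DN1 libraries of both genotypes ranged from 0 to 1, where Lmo2 passed without 1 well of the WT DN1 library. The Lmo2 ratio between DN2b and DN2a of WT cells ranged from −1.22 to 0.0015 with single wells left out and so changed sign, beside −0.75. Of 1506 values of single factors over all settings and wells left out, 139 lay outside the counting interval of the reported value. A further 1366 lay within it and did not reverse a ratio reported past 1.5-fold. The remaining 1 was this Lmo2 value of 0.0015, which lay within the interval but changed the sign of a ratio reported past 1.5-fold. Ratios under 1.5-fold also changed sign under some settings. TMM scaling moved every ratio that used the WT DN2a library by 0.13 to 0.17. The count for cells with against cells without a Bcl11b UMI ranged from 12 to 18 over 10 settings, beside 16. No paired analysis was possible because each condition was 1 library. Depth limits Lmo2, Hoxa9 and the DN2b values of Spi1 and Mef2c most.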

Other observations

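Hlf, a stem cell factor of the list above named after its values were seen, went against the declining factors. It had 3, 12 and 20 UMIs in the WT DN1, DN2a and DN2b libraries and 4, 21 and 43 UMIs in the ΔTE libraries, or 0.501, 1.33 and 7.33 CPM in WT and 0.679, 3.32 and 25.1 CPM (18.1 to 33.8) in ΔTE cells. All 3 ΔTE DN2b wells, at 20.8 to 33.6 CPM, lay above those of every other library. Of its 103 UMIs, 79 were in cells with at least 2 UMIs of ILC or NK markers. Those cells were 18.2% of the ΔTE DN2b library and 9.70% of the WT DN2b library, and their part in the difference was not tested.

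One reverse-transcription well of the ΔTE DN2a library stood apart from the other two, with Etv6 at 705 CPM against 1129 and 1098 CPM and Erg at 195 CPM against 318 and 298 CPM. It also had 82.5 CPM of Bcl11a against 131 and 110 CPM, whereas Lyl1 was at 130 CPM against 99.4 and 111 CPM. Its cells had a median of 16.6% mitochondrial UMIs against 22.4% and 24.5%. Against the other wells, genes over 100 kb had a median log2 ratio of −0.32 and genes under 20 kb one of 0.52, and of these factors Etv6 and Erg span over 100 kb and Lyl1 3.26 kb. A well of the ΔTE DN2b library had a smaller shift of the same direction, with medians of −0.24 and 0.23. It had 11.3 CPM of Meis1 against 39.7 and 24.8 CPM, and 171 CPM of Erg against 213 and 227 CPM. Lyl1 was at 88.5 CPM in it against 73.6 and 46.0 CPM. Mef2c, also over 100 kb, went the other way, at 11.3 CPM against 1.89 and 5.31 CPM. The part of these differences in the factors' values was not tested.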
